A study of Mus musculus with 2 samples.

Results

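The genes described here are 37 enzymes, transporters and regulators of glycolysis and the pentose phosphate pathway, taken by symbol from a list drawn up with earlier results of these data known. Of the 37, 31 genes had at least 1 probe set that the platform annotation pairs with that symbol alone, out of 12393 such genes on the array, and they were read by 61 of 22626 probe sets. Gpi1, Hk3, Pfkfb4, Eno1 and G6pdx had no probe set named in the annotation used here, which leaves 1555 probe sets unnamed. Gapdh was read only by control probe sets and by probe sets shared with other symbols, which stand apart from the counts. No value is therefore given for Gpi1, the mouse gene of the enzyme that served as the antigen.

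Glycolysis splits glucose into pyruvate in the cytosol, and the pentose phosphate pathway branches from it at glucose-6-phosphate to make NADPH and ribose. Glucose-6-phosphate isomerase (GPI), the enzyme that turns glucose-6-phosphate into fructose-6-phosphate, is at once a step of glycolysis and the antigen used to induce arthritis in this model. Activated lymphocytes take up more glucose and release lactate, and neutrophils rely on glycolysis for energy and on NADPH from the pentose phosphate pathway for their oxidative burst. The transcription factor HIF-1, of which Hif1a is the oxygen-regulated subunit, drives many of these genes at promoter sites with a core of ACGTG or GCGTG.

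Splenocytes were compared on day 10 between male DBA/1 mice immunized with 300 μg of recombinant human GPI-GST and male DBA/1 mice immunized with 100 μg of GST, the carrier glutathione S-transferase, both in complete Freund's adjuvant and both obtained at 6 to 8 weeks of age. They are called GPI-immunized (GPI) and control-immunized (control) mice here. From each group 3 spleens were taken, and the sources used here do not say whether they were pooled. RNA of each group went onto 1 mouse 430A 2.0 GeneChip (Affymetrix), on which 1 or more probe sets per transcript give a summarized brightness, the signal. With 1 array per group no test was possible, and every ratio (GPI-immunized over control-immunized) compares these 2 arrays and not the conditions. Since whole splenocytes were used, more cells of a type and more RNA per cell cannot be told apart.

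The median signal was 51.8 in GPI-immunized and 48.65 in control-immunized splenocytes. A signal was taken as sufficient where 1 of the 2 arrays reached 50.2, the 50th percentile of all signals. Bacterial control probe sets with no target in mouse RNA reached 6.3 on the GPI-immunized and 14.1 on the control-immunized array. The higher value, 14.1, served as the limit for both arrays, and a signal below it is called under the bacterial controls. Where a gene had several probe sets, the brightest was taken. As a measure of technical spread, 1693 genes with exactly 2 probe sets of sufficient signal gave an SD of 0.28 for the log2 ratio between probe sets. By this, 2 SD correspond to a ratio of 1.48. This spread holds no difference between mice and leaves out probe sets under 50.2 on both arrays. B and T cell markers were present on both arrays (Cd79a at 2076.5 in GPI and 2961.3 in control mice, Cd3d at 414.6 in GPI and 475.1 in control mice), as was the red cell gene Slc4a1 (4701.6 in GPI and 5954.8 in control mice).

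Most genes of glycolysis and the pentose phosphate pathway were higher in GPI-immunized than in control-immunized splenocytes, mostly by less than 2-fold. Of the 29 genes with sufficient signal, 24 had a ratio above 1, against 57.5% of all 6961 such genes. Of the 2 genes without sufficient signal, Aldoc had a ratio of 0.99 and Eno2 was under 14.1, the bacterial control limit, on both arrays. This left 24 of 31 measured genes above 1, against 54.2% of all 12393 genes. Only Slc16a3 and Pgd were at least 2-fold higher (2.23% of all genes), and 0 genes were at least 2-fold lower (0.445% of all genes). Over all genes measured, dim ones included, these shares were 2 and 0 of 31, against 10.2% and 8.92% of all genes. At a lesser limit of 1.5-fold, 6 genes were higher (7.05% of all genes), namely Slc16a3, Pfkfb3, Tpi1, Pgam1, Pkm and Pgd, and 0 were lower (3.23% of all genes). By more than 2 SD of the spread between probe sets, 7 genes were higher (7.73% of all genes), these 6 and Pfkm, and 0 were lower (3.68% of all genes). The spread was wider between probe sets of the glycolysis and pentose phosphate genes themselves (SD 0.36, 13 genes with over 1 probe set of sufficient signal). By 2 SD of that spread, a ratio of 1.64, 3 genes were higher (4.67% of all genes), Slc16a3, Pkm and Pgd, and 0 were lower (1.78% of all genes). The median log2 ratio of the 29 genes was 0.33, against 0.06 for all genes with sufficient signal. Slc16a3 reached sufficient signal only through the GPI-immunized array.

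These directions depend on how the arrays are set against each other. Loess centring, quantile normalization and division by the array median each left 21 of 29 genes above 1, with Hk1, Pdk1 and Rpia moving below 1, beside 45.1% to 48.2% of all genes. Arrays set equal on the hybridization controls gave 27 of 29 above 1, with Slc16a1, Pgm1 and Tkt added, beside 79.5% of all genes. When the arrays were instead set equal on Gapdh, itself a glycolytic enzyme, the median log2 ratio of all genes moved by -0.65 and 20 of the 31 genes moved below 1. Tpi1, Pkm and Pgd stayed above 1, 3 of the 29 genes with sufficient signal under that scaling, beside 5.3% of all genes. Slc16a3 also stayed above 1, at 1.85, but no longer had sufficient signal, so these 29 are not all the same genes. Measured against the median of all genes, 22 of the 29 genes lay above it (50% of all genes), and this count was 22 or 23 under each of the 5 other scalings. The distance between the median log2 ratio of the 29 genes and that of all genes was 0.27 as deposited and between 0.27 and 0.29 under those scalings. Division by the array median and arrays set equal on the hybridization controls or Gapdh shift every log2 ratio by the same amount. There the count and the distance could change only through which genes had sufficient signal. Only quantile normalization and loess centring could alter them otherwise.

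**Figure D1:**
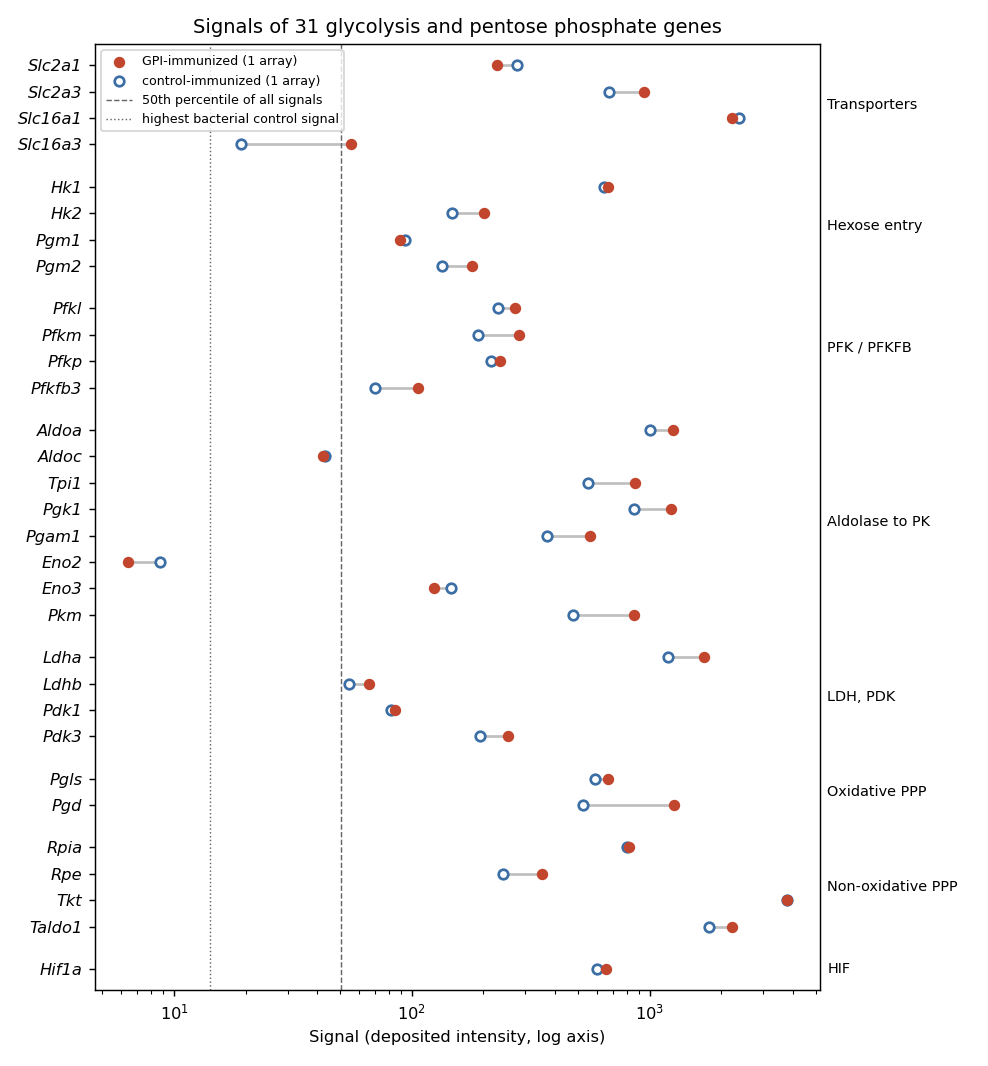
Signals of the brightest probe set of 31 glycolysis and pentose phosphate genes (horizontal log axis, deposited intensity), grouped by pathway step (PPP, pentose phosphate pathway; PFK, phosphofructokinase; PK, pyruvate kinase; PDK, pyruvate dehydrogenase kinase), with 1 array per group and no error bar. Filled points (GPI-immunized) lie to the right of open points (control-immunized) for 24 of the 31 genes, against 54.2% of all measured genes. The widest gaps are those of Slc16a3 (55.2 in GPI against 19.1 in control mice) and Pgd (1262.7 in GPI against 522.8 in control mice). Under arrays set equal on Gapdh, 20 of the genes would change sides.

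Of the 4 transporters, 2 had ratios above 1, beside 57.5% of all genes with sufficient signal. Slc16a3 (Entrez Gene 80879) encodes MCT4, the monocarboxylate transporter by which glycolytic cells export lactate. Its signal was 55.2 in GPI-immunized and 19.1 in control-immunized splenocytes, a ratio of 2.89 from a single probe set. Both signals were above the bacterial controls, but the control signal was below the limit, and raising all signals to the 50th percentile brought the ratio down to 1.10. Slc16a1 (MCT1), which carries lactate and pyruvate in both directions, was close to even, at 2208.3 in GPI-immunized and 2378.8 in control-immunized splenocytes (ratio 0.93). The glucose transporter Slc2a3 (GLUT3) had signals of 942.9 in GPI-immunized and 672.9 in control-immunized splenocytes, a ratio of 1.40. Its 3 other probe sets were higher in GPI mice as well, with ratios of 1.28 and 2.01 in 2 of them and at least 1.28-fold in the third, where the control signal was under the bacterial controls. With arrays set equal on Gapdh the ratio of the brightest probe set was 0.90. Slc2a1 (GLUT1), the widely expressed glucose transporter, had signals of 227.3 in GPI-immunized and 276.6 in control-immunized splenocytes, a ratio of 0.82, and its other probe sets gave 0.86 and 1.02.

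At the entry of hexoses, Hk1 and Hk2 encode hexokinases, which trap glucose as glucose-6-phosphate. Hk2, the form that is induced in many activated cells, had signals of 200.3 in GPI-immunized and 147.4 in control-immunized splenocytes (ratio 1.36). Hk1 had signals of 670.5 in GPI-immunized and 645.3 in control-immunized splenocytes (ratio 1.04), but its dimmer probe set read 426.0 in GPI against 215.6 in control mice, a ratio of 1.98. Of the 2 probe sets named for Hk1 alone, the brighter therefore lay near 1 and the other near 2. A still brighter probe set, shared by 6 symbols and left out of the counts, read 5555.1 in GPI against 5939.7 in control mice (ratio 0.94). The deposited values do not say which of them stands for the gene. Hk1, Hk2 and Pgm2 moved below 1 with arrays set equal on Gapdh. Pgm1 (Entrez Gene 72157), which converts glucose-1-phosphate from glycogen into glucose-6-phosphate, had signals of 89.1 in GPI-immunized and 93.7 in control-immunized splenocytes (ratio 0.95). Pgm2 (Entrez Gene 66681), known in human as a phosphopentomutase, had signals of 179.0 in GPI and 133.3 in control mice (ratio 1.34). The symbols of these 2 genes were exchanged in older mouse annotations, and the gene IDs settle which is meant here.

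All 4 measured genes of the phosphofructokinase step, which commits sugar to glycolysis, had ratios above 1, beside 57.5% of all genes with sufficient signal. These 4 moved below 1 only with arrays set equal on Gapdh. Among the subunits, Pfkm (muscle type) had signals of 281.1 in GPI-immunized and 188.9 in control-immunized splenocytes, a ratio of 1.49. Pfkl (liver type) had signals of 270.9 in GPI and 229.3 in control mice (ratio 1.18), with 1.20 from its other probe set. Pfkp (platelet type) had signals of 235.5 in GPI and 214.5 in control mice (ratio 1.10), whereas its dimmer probe set read 52.1 in GPI against 14.7 in control mice, a ratio of 3.54 with a control signal at the edge of the bacterial controls. The 2 probe sets of Pfkp differed more than those of any other of these genes. Pfkfb3, which makes the phosphofructokinase activator fructose-2,6-bisphosphate, had signals of 105.6 in GPI-immunized and 70.2 in control-immunized splenocytes (log2 ratio 0.59), and by its dim probe set, where the control signal was under the bacterial controls, it was at least 1.64-fold higher in GPI mice.

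From aldolase to pyruvate kinase, 5 of the 6 genes with sufficient signal had ratios above 1, against 57.5% of all such genes. Of all 8 measured genes 5 were above 1, a share near that of all measured genes (54.2%). The 3 others were the isozymes Aldoc, Eno2 and Eno3. Pkm (Entrez Gene 18746), pyruvate kinase, had the highest ratio of this stretch, with signals of 861.0 in GPI-immunized and 477.0 in control-immunized splenocytes (ratio 1.81). Tpi1 (Entrez Gene 21991), triosephosphate isomerase, had signals of 869.6 in GPI and 550.4 in control mice (ratio 1.58), and its other probe sets gave 1.75 and 1.78. With arrays set equal on Gapdh, the log2 ratio was 0.21 for Pkm and 0.02 for Tpi1. Pgam1, phosphoglycerate mutase, had signals of 560.4 in GPI-immunized and 370.3 in control-immunized splenocytes (ratio 1.51). Pgk1, phosphoglycerate kinase, had signals of 1230.8 in GPI and 859.4 in control mice (ratio 1.43), with 1.74 and 1.75 from its other probe sets. Aldoa, the main aldolase outside liver and brain, had signals of 1255.8 in GPI and 1000.6 in control mice (ratio 1.26), and all 4 of its probe sets lay between 1.14 and 1.37. Pgam1, Pgk1 and Aldoa moved below 1 with arrays set equal on Gapdh. Eno3, the muscle enolase, read 123.9 in GPI against 146.6 in control mice (ratio 0.85), Aldoc 42.4 in GPI against 43.0 in control mice (0.99), and the neuronal enolase Eno2 was under the bacterial control limit on both arrays (6.4 in GPI and 8.7 in control mice), so no ratio is given for it. Eno1, the widely expressed enolase, had no named probe set.

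Lactate dehydrogenase and the kinases that switch off pyruvate dehydrogenase steer whether pyruvate becomes lactate or enters the mitochondria. Ldha, the subunit that favours lactate formation, had signals of 1686.8 in GPI-immunized and 1198.2 in control-immunized splenocytes (ratio 1.41). Ldhb had signals of 66.0 in GPI and 54.2 in control mice (ratio 1.22), and its 4 probe sets ran from 1.11 to 1.39. The kinase Pdk3 had signals of 253.8 in GPI-immunized and 193.4 in control-immunized splenocytes (ratio 1.31). Pdk1, a classical HIF-1 target, read 85.3 in GPI against 81.5 in control mice (ratio 1.05), and its other probe set gave a ratio of 1.37. All 4 genes were above 1 on the deposited scale, beside 57.5% of all genes with sufficient signal, and below 1 with arrays set equal on Gapdh. Pdk1 was below 1 under loess centring, quantile normalization and division by the array median too.

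**Figure D2:**
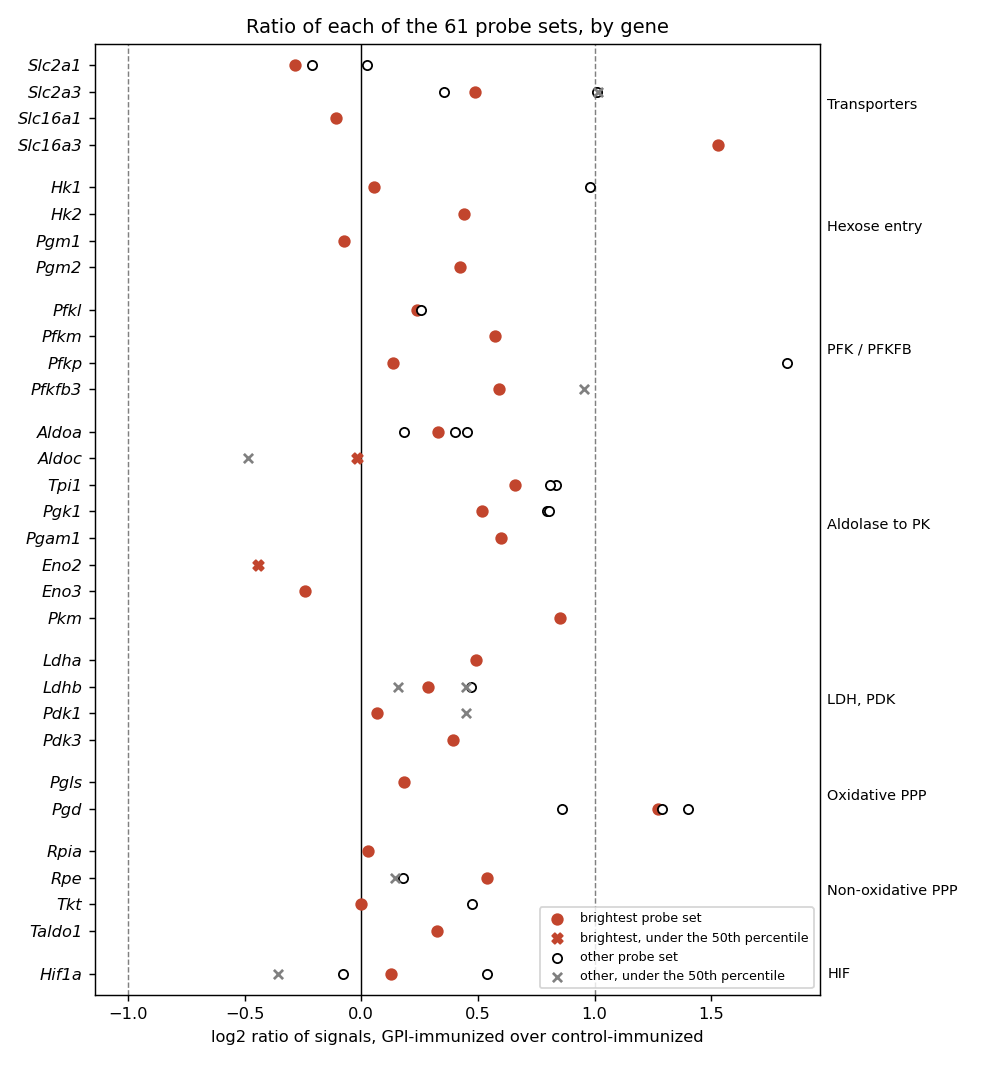
Horizontal axis, log2 of GPI-immunized over control-immunized signal for each of the 61 probe sets of 31 genes, 1 array per group, with the 2-fold ratios as dashed lines and crosses for probe sets under 50.2 on both arrays. Of the 61 probe sets, 50 lie to the right of 0, among them 1 of Rpe that was under the bacterial controls on both arrays (5.2 in GPI and 4.7 in control mice). The share over all probe sets was not taken, so this count has nothing to be set against. By brightest probe set, 24 of 31 genes lie to the right, against 54.2% of all measured genes. The 4 of Pgd all lie far to the right, while those of Hk1 and Pfkp lie far apart. Setting the arrays equal on Gapdh would shift every point to the left by 0.64.

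In the pentose phosphate pathway 1 enzyme stood out. Pgd (Entrez Gene 110208) encodes 6-phosphogluconate dehydrogenase, the second of the 2 NADPH-forming steps of the oxidative branch. Its signal was 1262.7 in GPI-immunized and 522.8 in control-immunized splenocytes, a ratio of 2.42, the highest among these genes with sufficient signal on both arrays. Its 3 other probe sets read 1101.5 in GPI against 450.9 in control mice, 782.3 in GPI against 430.4 in control mice and 604.0 in GPI against 229.1 in control mice, ratios of 2.44, 1.82 and 2.64. All 4 were thus above the 2 SD of the spread between probe sets, and Pgd ranked 74th in ratio among the 6961 genes. It stayed above 1 under every scaling, at 2.27 to 2.77 except with arrays set equal on Gapdh (1.55). All 4 are of the types that can read more than 1 transcript, so no value of Pgd remained when those were left out. Pgls, the lactonase of the step before, had signals of 668.7 in GPI-immunized and 589.2 in control-immunized splenocytes (ratio 1.13), and G6pdx, which opens the branch, had no named probe set.

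The non-oxidative branch, which interconverts pentoses and glycolytic sugars, was nearer to even than Pgd. Rpe, ribulose-phosphate epimerase, had signals of 351.0 in GPI-immunized and 241.5 in control-immunized splenocytes (ratio 1.45), with 1.13 from its next probe set. Taldo1, transaldolase, had signals of 2225.0 in GPI and 1774.2 in control mice (ratio 1.25). Rpia, ribose-5-phosphate isomerase, read 821.4 in GPI against 804.0 in control mice (ratio 1.02). Tkt, transketolase, was even at 3774.8 in GPI-immunized and 3782.4 in control-immunized splenocytes (ratio 1.00), although its second probe set read 1929.7 in GPI against 1389.0 in control mice (ratio 1.39). Pgls, Rpe, Taldo1 and Rpia moved below 1 with arrays set equal on Gapdh. The median log2 ratio of the 6 measured pentose phosphate genes was 0.25, and that of the 16 glycolysis genes with sufficient signal (glucose transport to lactate dehydrogenase) was 0.46, against 0.06 for all genes. Whether the 2 pathways differ was not tested.

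Hif1a had signals of 654.5 in GPI-immunized and 600.0 in control-immunized splenocytes (ratio 1.09), and moved below 1 with arrays set equal on Gapdh. Of its 4 probe sets, 1 was under the bacterial controls on both arrays and the others lay on both sides of 1, from 0.95 to 1.45. Of 21 other HIF partners, regulators and classical targets, 17 were measured and 9 had sufficient signal. Of these 9, 0 were 2-fold higher or lower (2.23% and 0.445% of all genes), and 6 were above 1, near the 57.5% of all genes. Over all 17 measured, 9 were above 1, near the 54.2% of all measured genes. The median log2 ratio of the 9 with sufficient signal was 0.17, against 0.06 for all genes. The collagen prolyl hydroxylase P4ha1 was highest (120.9 in GPI against 83.8 in control mice, ratio 1.44) and Hif3a lowest (96.8 in GPI against 126.4 in control mice, ratio 0.77). Between them lay Cited2 (271.4 in GPI against 205.6 in control mice, ratio 1.32), Egln1 (ratio 1.21), Ndrg1 (1.21), Higd1a (1.13), Egln2 (1.06), Ddit4 (1.00) and Bnip3 (0.89).

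The promoters of these genes were read from RefSeq (GRCm38.p6) as the 250 bases before each annotated start, on the strand of the gene. Windows were found for 36 of the 37 genes (50 windows), all but Slc2a3. The HIF-1 core ACGTG, searched on both strands, stood in 19 of the 50 windows (38.0%), against 17.8% of 21263 windows of all protein-coding genes. The other core GCGTG stood in 54.0%, against 33.8%. The GC box GGGCGG, which is no HIF-1 core, stood in 58.0%, against 42.6%, and the windows of these genes had a median GC content of 60.0%, against 55.6%. Slc16a3 and Pgd are shown as the only genes at least 2-fold higher, and Ldha and Pgk1 as glycolytic genes with several cores. Capitals mark ACGTG as read on either strand (ACGTG or CACGT on the printed strand).
Slc16a3 (chr11:120948817-120949066, + strand): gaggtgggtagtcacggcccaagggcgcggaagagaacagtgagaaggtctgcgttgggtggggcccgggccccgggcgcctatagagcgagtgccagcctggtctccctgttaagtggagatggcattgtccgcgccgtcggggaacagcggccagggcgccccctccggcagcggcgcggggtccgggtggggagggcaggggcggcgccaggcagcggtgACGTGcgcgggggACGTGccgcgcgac
Pgd (chr4:149166706-149166955, - strand): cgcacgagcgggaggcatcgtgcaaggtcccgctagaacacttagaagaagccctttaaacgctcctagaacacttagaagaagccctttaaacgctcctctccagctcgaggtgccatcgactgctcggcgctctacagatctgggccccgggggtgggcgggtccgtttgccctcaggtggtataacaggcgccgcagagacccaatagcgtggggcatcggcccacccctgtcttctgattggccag
Ldha (chr7:46845554-46845803, + strand): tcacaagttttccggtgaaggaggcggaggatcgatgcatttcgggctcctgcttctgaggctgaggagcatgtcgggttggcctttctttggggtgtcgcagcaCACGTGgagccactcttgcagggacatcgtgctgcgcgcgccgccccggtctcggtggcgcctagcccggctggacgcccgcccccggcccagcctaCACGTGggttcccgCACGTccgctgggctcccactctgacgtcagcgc
Pgk1 (chrX:106186850-106187099, + strand): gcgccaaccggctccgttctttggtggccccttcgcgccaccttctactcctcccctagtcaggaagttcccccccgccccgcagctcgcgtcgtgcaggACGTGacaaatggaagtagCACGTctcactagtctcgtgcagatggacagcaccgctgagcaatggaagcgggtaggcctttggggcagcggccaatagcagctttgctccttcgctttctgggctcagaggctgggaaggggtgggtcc
Slc16a3 and Pgk1 each hold the core at 2 places and Ldha at 3, where both places that read CACGTG count on either strand. Of the 2 annotated starts of Pgd and of Ldha, the window with the more cores is shown. The other Ldha window holds ACGTG at 0 places, as do both Pgd windows, of which the one shown holds GCGTG once. A match is a string of letters in a window, and no binding was measured.

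**Figure D3:**
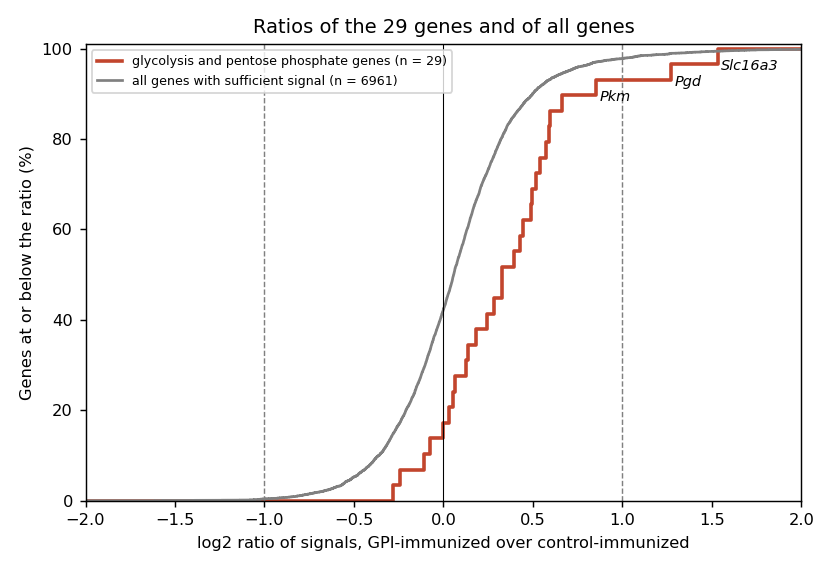
Share of genes (vertical axis, %) at or below each log2 ratio of GPI-immunized to control-immunized signal (horizontal axis) for the 29 glycolysis and pentose phosphate genes and for all 6961 genes with sufficient signal, from 1 array per group, with the 2-fold ratios as dashed lines. The curve of the 29 genes lies to the right, with medians of 0.33 and 0.06, and its lowest value, that of Slc2a1, is -0.28. Another scaling moves both curves together, and with arrays set equal on Gapdh the medians would be -0.32 and -0.59.

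Each of 5 lists of neighbouring genes had most of its genes with sufficient signal above 1 and a median log2 ratio above the 0.06 of all genes. The lists are small, and 57.5% of all genes with sufficient signal were above 1, 2.23% at least 2-fold higher and 0.445% at least 2-fold lower. In glycogen metabolism, 6 of 13 genes had sufficient signal, of which 5 were above 1, 1 was at least 2-fold higher and 0 were lower (median log2 ratio 0.28). This was Pygl, the glycogen phosphorylase known from liver, with 803.0 in GPI-immunized and 336.8 in control-immunized splenocytes (ratio 2.38). Gyg, glycogenin, which primes glycogen, read 380.5 in GPI against 234.7 in control mice (ratio 1.62), and Gys1, glycogen synthase, 58.9 in GPI against 68.7 in control mice (ratio 0.86). Of 22 other glycolysis isozymes and regulators, 17 were measured and 7 had sufficient signal, of which 6 were above 1 and 0 were 2-fold higher or lower. Their median log2 ratio of 0.36 was beside the 0.33 of the 29 genes. The ADP-dependent glucokinase Adpgk had signals of 138.6 in GPI-immunized and 84.0 in control-immunized splenocytes (ratio 1.65), and Bpgm, which makes 2,3-bisphosphoglycerate in red cells, 648.2 in GPI and 987.6 in control mice (ratio 0.66). Of 12 genes of the pyruvate dehydrogenase complex and pyruvate entry, 8 were measured and 6 had sufficient signal. Of these 6, 5 were above 1 (median log2 ratio 0.16), with ratios from 0.80 for Pcx to 1.19 for Pdha1. Of 8 further genes of ribose metabolism, 7 were measured and 6 had sufficient signal, of which 4 were above 1. Their median log2 ratio was 0.23 beside 0.25 for the 6 pentose phosphate genes, with log2 ratios from -0.13 for Idnk to 0.38 for Dera and H6pd. Of 12 other transporters, 10 were measured and 4 had sufficient signal, of which 3 were above 1 (median log2 ratio 0.14). Over all 10 measured, 3 were above 1 (54.2% of all measured genes) and the median log2 ratio was -0.13. The 4 had ratios from 0.70 (Slc2a4) to 1.20 (Slc2a8). Bsg, the partner protein that MCT1 and MCT4 need at the cell surface, read 2159.6 in GPI against 1958.1 in control mice (ratio 1.10). Directions in this paragraph are on the deposited scale, and with arrays set equal on Gapdh all ratios are lower by the same factor of 1.56.

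Markers of cell types moved in the same comparison. Of all 6961 genes with sufficient signal, 4006 were above 1 (57.5%), 2950 were below 1 and 155 were at least 2-fold higher (2.23%). All 16 measured neutrophil markers had ratios above 1 and 8 were at least 2-fold higher, with a median log2 ratio of 1.03 and a summed signal of 53196 in GPI-immunized and 36162 in control-immunized splenocytes. All 11 B cell markers with sufficient signal were below 1 (median log2 ratio -0.43, summed signal of the 12 measured 14265 in GPI and 18868 in control mice), and so were 10 of 12 T cell markers (median -0.47, summed signal of the 13 measured 2116 in GPI and 2938 in control mice). Monocyte and macrophage markers lay nearer to 1, with 9 of 10 above 1 (median 0.20, summed signal of the 13 measured 5805 in GPI and 5067 in control mice), and platelet markers were above 1 in 5 of 5 (median 0.50, summed signal of the 7 measured 620 in GPI and 452 in control mice). Erythroid markers (median -0.13, summed signal of the 8 measured 19163 in GPI and 21032 in control mice) and genes of dividing cells (median 0.09, summed signal 18017 in GPI and 17669 in control mice) were close to even. With sufficient signal, NK cell markers were below 1 in 4 of 5 (median -0.27, summed signal of the 6 measured 724 in GPI and 863 in control mice). Among all markers measured 0 were at a signal of 0, and only 3 macrophage markers and 1 erythroid marker were at or under the bacterial controls on both arrays. With arrays set equal on Gapdh, each of these log2 ratios would be lower by 0.64. The part of these cell types in the ratios of the glycolysis and pentose phosphate genes was not tested.

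**Figure D4:**
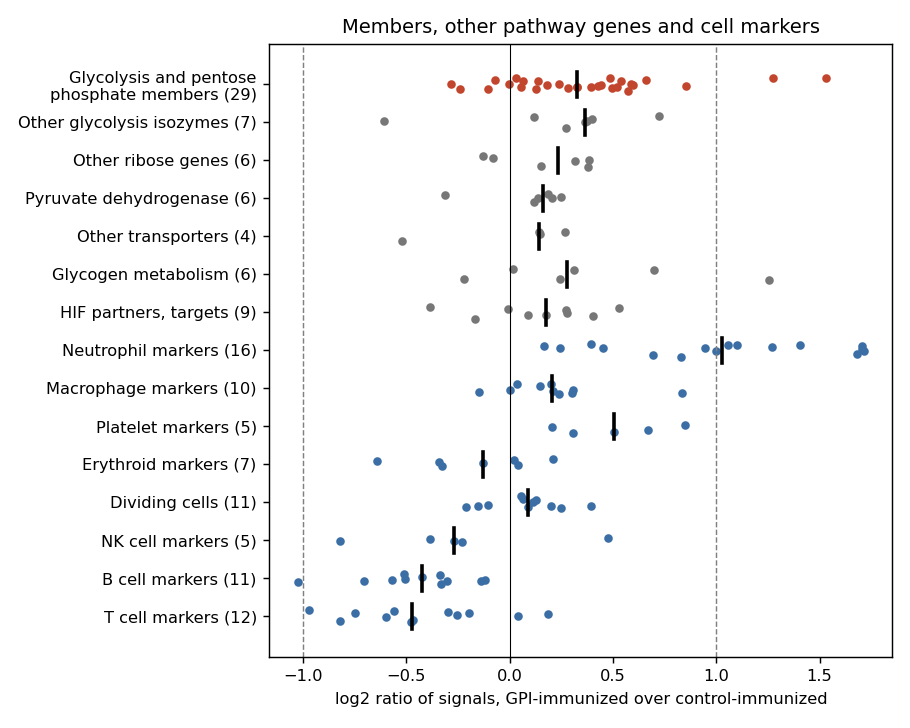
Log2 ratio of GPI-immunized to control-immunized signal (horizontal axis) for genes with sufficient signal in each list, 1 point per gene from 1 array per group, the number of genes in brackets, dashed lines at 2-fold and a black bar at the median of each list (vertical scatter has no meaning). The 29 genes (top row, median 0.33) lie between the neutrophil markers (median 1.03) and the B and T cell markers (medians -0.43 and -0.47), and with arrays set equal on Gapdh every point would lie 0.64 further left.

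**Figure D5:**
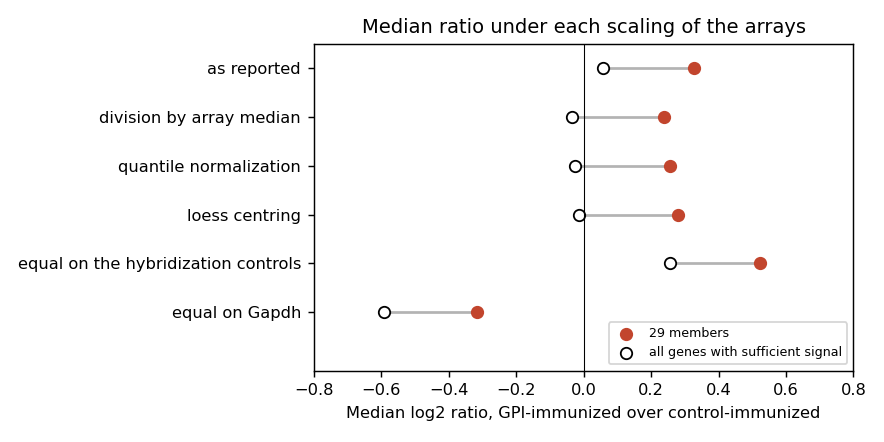
Median log2 ratio (horizontal axis) of the 29 glycolysis and pentose phosphate genes (filled) and of all genes with sufficient signal (open) under 6 scalings of the same 2 arrays. Both medians move together, to 0.52 and 0.26 with arrays set equal on the hybridization controls and to -0.32 and -0.59 with arrays set equal on Gapdh. The distance between them lies between 0.27 and 0.29, which was nearly fixed in advance for all scalings but quantile normalization and loess centring.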

How the data were processed

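The authors deposited 1 intensity per probe set and array, on a linear scale, for splenocytes of GPI-immunized and control-immunized mice. How signals were summarized, scaled and called present is not given in the sources used. The labels name a whole-transcript cDNA labelling kit, and the paper names biotinylated cRNA. With 1 array per group, their number limits the precision.

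Names came from the platform annotation, and probe sets with exactly 1 symbol were used (20380 of 22626), and control probe sets were left out. The symbols of all 31 measured genes were the same in RefSeq (GRCm38.p6). The ratio of GPI-immunized to control signal was taken without further scaling, with 3 signals of 0 set to 0.1. Genes named in the text are all members, up to 4 genes of each further list (those with sufficient signal furthest from a ratio of 1) and any gene at least 2-fold changed. Ndrg1, Higd1a, Egln2, Bnip3, Ddit4, Gys1, Cd3d and Idnk lie outside this rule and were chosen after their values were seen. The members and lists were chosen with earlier results of these data known. The steps were tested on simulated data. Alternatives were other scalings, floors on low signals, choices of probe sets, filters and thresholds. Python 3.11.15, numpy 2.4.6, pandas 2.3.3 and statsmodels 0.14.6 were used.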

Additional observations from a re-analysis of the deposited data

Results flagged for a closer look

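Gapdh, which the study used to normalize its PCR, was read by probe sets left out of the comparison, and its signal was higher on the GPI-immunized array in each of them. The 3 control probe sets read 3269.2 in GPI-immunized against 2285.0 in control-immunized mice, 3895.8 in GPI-immunized against 2415.5 in control-immunized mice and 3252.1 in GPI-immunized against 1973.1 in control-immunized mice, ratios of 1.43, 1.61 and 1.65. A bright probe set shared by 5 symbols read 4874.5 in GPI-immunized against 3796.5 in control-immunized mice (ratio 1.28). A dim one shared by 2 symbols read 31.7 in GPI-immunized against 7.4 in control-immunized mice (ratio 4.28), where the control signal was under the highest bacterial control, which leaves it at least 2.25-fold higher. The control probe sets of β-actin, read in the same way, had ratios of 1.02, 1.07 and 1.00. All of these are lower by the same small factor where arrays are divided by their medians.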

How the results depend on the processing

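The count of genes at least 2-fold higher was 2 of 29 (Slc16a3 and Pgd), beside 155 of all 6961 genes with sufficient signal. With a floor at the 50th percentile it was 1 of 29 (all genes, 111 of 6961). With the filter at the 75th percentile it was 1 of 21 (all genes, 70 of 3868), Pgd in both. At a 1.5-fold threshold it was 6 of 29 (all genes, 491 of 6961), and at 3-fold 0 of 29 (all genes, 35 of 6961). It was also 2 without probe sets that can read several transcripts (all genes, 131 of 5480), but as Slc2a3 and Slc16a3. Both then had sufficient signal only through the GPI-immunized array (Slc2a3 at 50.7 in GPI against 25.2 in control mice). In that setting 15 genes lay above 1, of the 19 that remained, beside 58.2% of all 5480 genes. The next 3 alternatives were chosen after seeing the data. A filter on the mean signal of both arrays left 1 of 28 genes at least 2-fold higher (Pgd), beside 123 of all 6784 genes. Arrays set equal on the hybridization controls (17 of 18 lower on the GPI-immunized array, median ratio 0.873) gave 3 genes, with Pkm. Beside them stood 262 of all 6980 genes. Arrays set equal on Gapdh gave 0 genes at least 2-fold higher, beside 29 of all 7076 genes. There 3 lay above 1 with sufficient signal, beside 5.3% of all genes. The medians were reversed, at -0.32 over all 29 genes, -0.20 for glycolysis and -0.39 for the pentose phosphate pathway, beside -0.59 for all genes. The count of 2-fold lower genes was 0 in all settings. The count over all genes ran from 3 of 6961 (3-fold threshold) to 755 of 7076 (Gapdh) and 1105 of 12393 (no filter). A count of 0 therefore does not mean the same in each setting. The 3 medians were positive in each setting but that of Gapdh. Of 300 single-gene values under alternatives, 258 moved by less than the spread between probe sets (SD 0.28). Much of this count was fixed in advance. Division by the array median and the hybridization controls shift every gene by less than that spread, and Gapdh shifts every gene by more. A floor leaves brighter genes unmoved, so the count does not measure how stable the genes are. The planned values for Gpi1 could not be computed, and no paired analysis was possible because each group has 1 array. Without replicates and detection calls, dim genes such as Slc16a3 and Eno2 are the most open to the floor and the filter.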
